A study of Mus musculus with 7 samples.

Results

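Genes of eosinophils, basophils and mast cells are described here in blood stem cells of mice that lack endomucin, a sialomucin of the cell surface encoded by Emcn. They are Ear1, Ear2, Ear6, Alox15, Epx, Prg2, Mcpt8, Prss34 and Cpa3, 9 of the 54347 genes in the deposited count table, taken by symbol. They were chosen by their measured levels, because Ear1, Alox15, Mcpt8 and Cpa3 were lower in the Emcn-/- libraries, so every difference between the genotypes in these 9 genes is a description and carries no test. Long-term haematopoietic stem cells (LT-HSCs), which can rebuild the whole blood system, had been sorted from bone marrow of 3 female Emcn-/- mice (ko_306, ko_314 and ko_320) and of 4 female Emcn+/+ littermates (wt_284, wt_290, wt_310 and wt_312). Each library was made from 3000 to 5000 cells of 1 mouse. All 7 mice carry the same strain label, C57BL/6N-EMCN em1(IMPC)Wtsi /WtsiH, with no transgene, treatment or age named. Before sorting, lineage-positive cells were depleted and the rest stained for lineage antigens (Gr-1 and CD11b among them) and for stem cell antigens such as CD150, CD48 and Sca-1.

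Eosinophils, basophils and mast cells are granulocytes of allergic and antiparasite responses, and each stores a characteristic set of cationic proteins and proteases in its granules. Eosinophil granules hold major basic protein (Prg2), eosinophil peroxidase (Epx) and the eosinophil-associated ribonucleases (the Ear genes), while mouse basophils make the serine proteases encoded by Mcpt8 and Prss34. These cells descend from progenitors that depend on GATA and C/EBP transcription factors, and their granule genes are generally not regarded as products of stem cells.

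The Ear genes lie on chromosome 14 and are close copies of each other, which bears on how their reads can be told apart. In GRCm38, Ear1 spans chr14:43818765-43875517 on the minus strand, Ear2 spans chr14:44102654-44103534 on the plus strand, and Ear6 spans chr14:51853699-51854643 on the plus strand. The transcripts of Ear1 and Ear2 were 96.0% identical, those of Ear1 and Ear6 88.5%, and those of Ear2 and Ear6 88.2%. The 250 bases before the RefSeq start of each gene are shown because the copies are also alike there. RefSeq and GENCODE place the starts of Ear1 and Ear6 differently. The Ear1 stretch lies wholly inside the GENCODE span given above, in none of its exons, and 69 bases of the Ear6 stretch lie in the GENCODE span and exon of Ear6. They were taken from RefSeq (GRCm38.p6), at chr14:43819640-43819889 (minus strand) for Ear1, chr14:44102404-44102653 (plus strand) for Ear2 and chr14:51853518-51853767 (plus strand) for Ear6, and capitals in Ear2 and Ear6 mark bases unlike Ear1 in a pairwise alignment.
Ear1: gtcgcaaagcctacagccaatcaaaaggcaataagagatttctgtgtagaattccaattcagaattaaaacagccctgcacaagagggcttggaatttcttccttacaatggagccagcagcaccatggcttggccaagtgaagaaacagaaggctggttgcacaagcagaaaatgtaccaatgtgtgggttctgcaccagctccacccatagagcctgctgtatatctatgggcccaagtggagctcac
Ear2: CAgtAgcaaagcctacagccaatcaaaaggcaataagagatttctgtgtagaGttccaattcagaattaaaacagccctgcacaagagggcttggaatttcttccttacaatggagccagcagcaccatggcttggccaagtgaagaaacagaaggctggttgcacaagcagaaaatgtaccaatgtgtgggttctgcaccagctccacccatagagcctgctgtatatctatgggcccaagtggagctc
Ear6: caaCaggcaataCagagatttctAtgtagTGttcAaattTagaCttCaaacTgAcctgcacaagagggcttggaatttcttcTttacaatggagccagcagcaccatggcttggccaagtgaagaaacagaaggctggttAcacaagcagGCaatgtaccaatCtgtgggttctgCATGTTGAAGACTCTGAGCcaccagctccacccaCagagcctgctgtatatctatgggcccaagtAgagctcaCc
Identity over these upstream stretches was 97.6% between Ear1 and Ear2, 78.2% between Ear1 and Ear6 and 77.3% between Ear2 and Ear6. Of the 31-base words in the Ear1 transcripts, 73.7% also occurred in another gene, as did 60.5% of those of Ear2 and 8.48% of those of Ear6. None was shared (0%) for the other 6 genes. Ear1 shared most words with the pseudogene Ear-ps9 (48.6%), ahead of Ear2 (40.6%). Ear2 shared most with Ear1 (40.2%), ahead of Ear10 (34.4%). The split of reads among Ear1, Ear2, Ear10, Ear-ps2 and Ear-ps9 is therefore uncertain. The 14 other Ear and Rnase2 entries of the table held 12 counts in all, of which 7 were Ear-ps9 and 5 Rnase2a, and all of these came from wt_284.

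The other 6 genes lie apart. Alox15 spans chr11:70344152-70352031 and Epx chr11:87864000-87875536, both on the minus strand, with Mpo, the neutrophil counterpart of Epx, 59.6 kb from Epx. Prg2 lies at chr2:84980461-84983632 on the plus strand, 4.6 kb from its paralogue Prg3. Mcpt8 lies at chr14:56082166-56085273 on the minus strand, 14.6 kb from Ctsg, Prss34 at chr17:25298394-25300165 on the plus strand, and Cpa3 at chr3:20215620-20242181 on the minus strand. The upstream stretches of Cpa3 (chr3:20242182-20242431, minus strand) and Prss34 (chr17:25298144-25298393, plus strand) are shown because, of the 7 genes with an entry, these held the letters GATAA, the core read by GATA factors, before the start. Capitals mark that core.
Cpa3: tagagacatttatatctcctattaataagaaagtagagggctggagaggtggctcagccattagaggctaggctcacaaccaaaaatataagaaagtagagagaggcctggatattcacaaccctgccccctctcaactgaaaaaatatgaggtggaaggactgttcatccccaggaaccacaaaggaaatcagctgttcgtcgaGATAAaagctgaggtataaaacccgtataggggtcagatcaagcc
Prss34: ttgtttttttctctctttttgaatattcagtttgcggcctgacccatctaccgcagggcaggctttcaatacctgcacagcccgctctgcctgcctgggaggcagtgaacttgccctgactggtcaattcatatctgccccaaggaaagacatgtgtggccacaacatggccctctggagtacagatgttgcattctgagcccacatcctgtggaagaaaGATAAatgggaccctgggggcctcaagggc
GATAA was searched on both strands of the 250 bases, and its only match began at position -45 in Cpa3 and at -30 in Prss34, where -1 is the base before the RefSeq start. In the whole 300-base entries, which run 50 bases past the start, Ear1, Ear2 and Ear6 each held 1 match too, and 25.8% of all such entries held the letters. Before the start, the same letters occurred in 23.0% of 27025 RefSeq promoters. Both matches also read AGATAA, which overlaps GATAA and occurred in 10.3% of promoters. TATAAA was found in Epx and Cpa3 and in 13.0% of promoters, and GAGGAA, a core read by PU.1, in Mcpt8 and in 23.1%. The Mcpt8 match began at -65, within the 76 bases before the RefSeq start that GENCODE places in an Mcpt8 exon. A match is a run of letters, not a known site.

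Library totals ran from 6444134 to 11101774 estimated counts, and 18507 to 23317 genes had a count. Emcn had 1, 0 and 0 counts in ko_306, ko_314 and ko_320, against 130, 327, 223 and 216 in wt_284, wt_290, wt_310 and wt_312, which fits every genotype label. It was the only one of 15372 genes tested that passed edgeR's quasi-likelihood test (log2 fold change -9.02, Benjamini-Hochberg adjusted p = 0.00011). Levels are given as CPM, counts divided by TMM-adjusted library sizes, and 3 counts, the limit that a count of 0 allows, stood for 0.258 to 0.459 CPM depending on the library. wt_284 stands apart from the other libraries in blood lineage genes, and was the highest of the 7 libraries for 23.1% of all tested genes and for 9 of 9 of the genes described here. Summed over 11 stem cell markers, levels were 2064, 1795 and 2035 CPM in ko_306, ko_314 and ko_320 and 1310, 1960, 1878 and 2023 CPM in wt_284, wt_290, wt_310 and wt_312.

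All 9 genes were low in the Emcn-/- libraries and higher in wt_284, wt_290 and wt_310, with wt_284 above all others and wt_312 close to the Emcn-/- range. For Cpa3, wt_310 was close to wt_312 too, at 5.66 against 5.27 CPM. Every KO library was below every WT library for Ear1, Alox15, Mcpt8 and Cpa3, whereas the groups overlapped for Ear2, Ear6, Epx, Prg2 and Prss34. Among all tested genes 2.43% had every KO library below every WT library, and since this contrast chose the genes, nothing is read from their count of 4. In bulk samples, fewer cells of a type and less RNA per cell cannot be told apart.

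**Figure D1:**
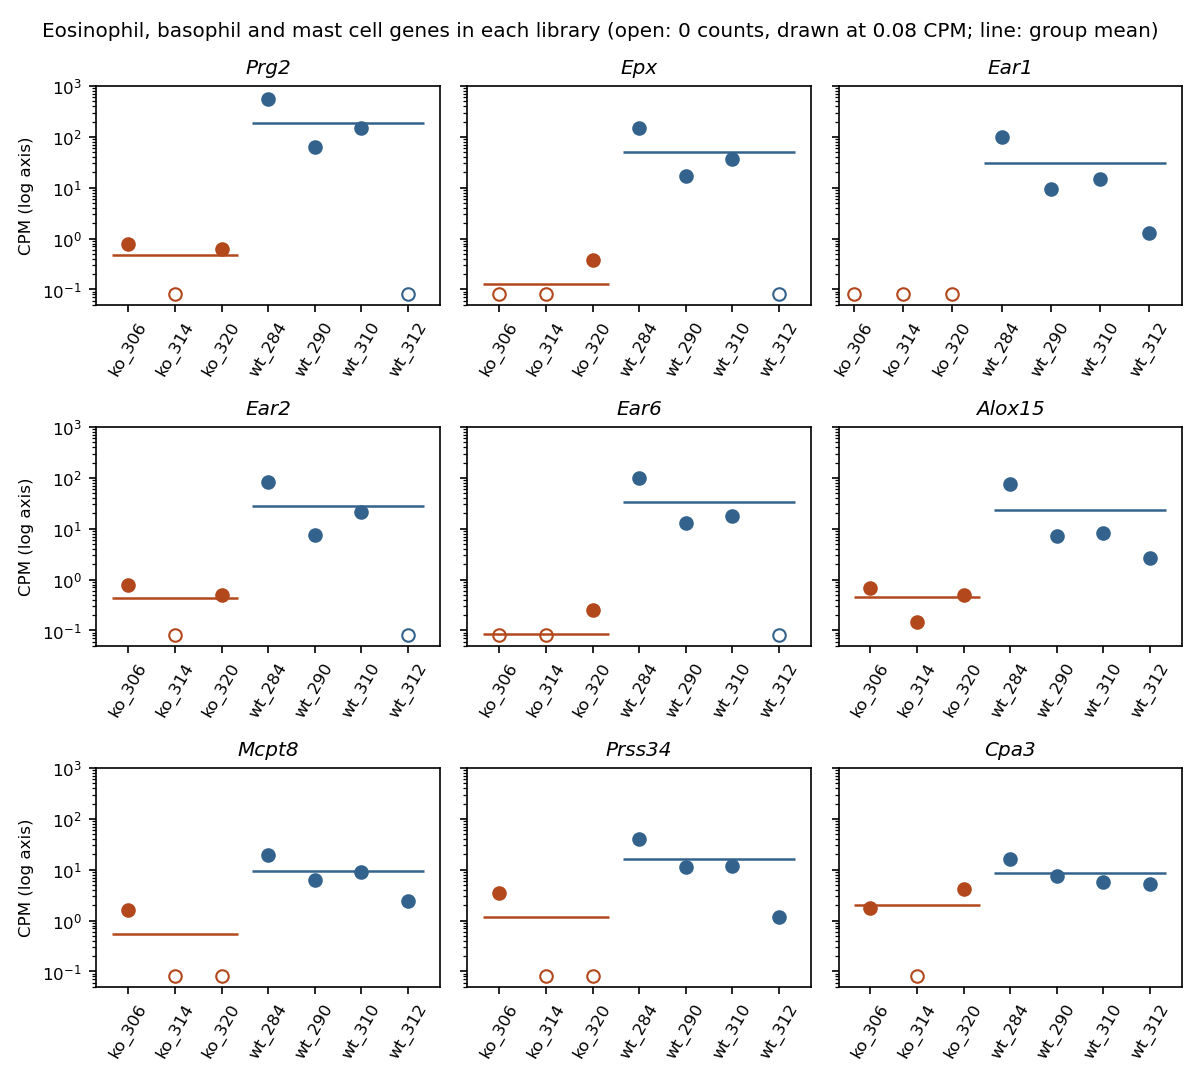
Level of each of the 9 genes (CPM, log axis) in each library, with KO libraries left of WT libraries. Each point is 1 mouse, open points are counts of 0 and the line is the group mean. wt_284 is the highest point in 9 of 9 panels.

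The major basic protein gene Prg2 was the most abundant of the eosinophil genes. It had 0.775, 0 and 0.637 CPM in ko_306, ko_314 and ko_320, against 548, 61.9, 152 and 0 CPM in wt_284, wt_290, wt_310 and wt_312. The groups overlapped, because wt_312 had no Prg2 count, like ko_314. Epx, whose peroxidase makes hypohalous acids in the eosinophil granule, had 0, 0 and 0.382 CPM in ko_306, ko_314 and ko_320, against 147, 17.4, 36.4 and 0 CPM in wt_284, wt_290, wt_310 and wt_312. Its order over the libraries was that of Prg2 in the WT group, and wt_312 was again at 0 counts.

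The ribonuclease genes had the same high libraries. Ear1 had no count in any KO library, against 99.6, 9.25, 14.5 and 1.28 CPM in wt_284, wt_290, wt_310 and wt_312, so that its groups did not overlap. Ear2 had 0.775, 0 and 0.509 CPM in ko_306, ko_314 and ko_320, against 81.5, 7.46, 21.6 and 0 CPM in wt_284, wt_290, wt_310 and wt_312. Ear6 had 0, 0 and 0.255 CPM in ko_306, ko_314 and ko_320, against 101, 13.1, 18.2 and 0 CPM in wt_284, wt_290, wt_310 and wt_312. For both of these the groups overlapped through wt_312, which held 10 counts of Ear1 and 0 of Ear2 and Ear6.

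Alox15 encodes the 12/15-lipoxygenase, which oxidises polyunsaturated fatty acids in eosinophils and in resident macrophages. It had 0.689, 0.149 and 0.509 CPM in ko_306, ko_314 and ko_320, against 75.3, 7.08, 8.41 and 2.70 CPM in wt_284, wt_290, wt_310 and wt_312. The lowest WT library, wt_312, was above the highest KO library, ko_306. Alox15 was the gene with the widest gap inside the WT group, since wt_284 stood 12.4-fold above the mean of the other 3 WT libraries.

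The basophil and mast cell genes were at 0 counts in ko_314 and, but for Cpa3, in ko_320. Mcpt8, the basophil granzyme-like protease, had 1.64, 0 and 0 CPM in ko_306, ko_314 and ko_320, against 19.2, 6.42, 9.17 and 2.44 CPM in wt_284, wt_290, wt_310 and wt_312. Prss34, a tryptase-like protease of basophils, had 3.53, 0 and 0 CPM in ko_306, ko_314 and ko_320, against 39.8, 11.1, 11.8 and 1.16 CPM in wt_284, wt_290, wt_310 and wt_312. ko_306 therefore lay above wt_312 for Prss34 and below it for Mcpt8. Cpa3, the carboxypeptidase of mast cell granules that is also made by basophils and their progenitors, had 1.81, 0 and 4.20 CPM in ko_306, ko_314 and ko_320, against 16.5, 7.37, 5.66 and 5.27 CPM in wt_284, wt_290, wt_310 and wt_312. Its groups did not overlap, but ko_320 and wt_312 were close. Cpa3 had the narrowest gap inside the WT group, with wt_284 2.71-fold above the mean of the other WT libraries.

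ko_314 had 0 counts for 8 of the 9 genes, with a single Alox15 count, and ko_306 and ko_320 each had 0 counts for 3. wt_284, wt_290 and wt_310 had counts for every one of the 9, and wt_312 had 0 counts for 4. Per kilobase of exon, the order of levels in wt_284 was Prg2 (654 CPM per kb), Ear1 (137), Ear2 (113), Ear6 (107), Epx (53.6), Prss34 (32.6), Alox15 (30.7), Mcpt8 (19.2) and Cpa3 (10.9). The ranges over the 4 WT libraries of any neighbours in that order overlapped. In wt_312 the order was another one, with Cpa3 at 3.47 and Mcpt8 at 2.45 CPM per kb above Ear1 at 1.76.

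Pooled over the libraries of a genotype, the KO level was 0.288% of the WT level for Prg2 (exact 95% interval 0.157 to 0.483), 0.233% for Epx (0.0480 to 0.682), 0.233% for Ear6 (0.0282 to 0.843), 1.85% for Ear2 (0.980 to 3.18) and 2.13% for Alox15 (1.13 to 3.67). Ear1, with 0 counts in the KO group, was at 0% (0 to 0.457), and its split from Ear2 is uncertain. For the basophil and mast cell genes the KO level was 7.90% for Mcpt8 (4.69 to 12.6), 9.77% for Prss34 (6.93 to 13.4) and 23.4% for Cpa3 (17.2 to 31.4). All 19 KO counts of Mcpt8 and all 41 of Prss34 came from ko_306. Without that library both were at 0% of the WT level, with intervals of 0 to 2.77 for Mcpt8 and 0 to 1.585 for Prss34. Without ko_320 the KO level of Cpa3 was 13.0% of the WT level (7.94 to 20.3), and without ko_306 it was 25.75% (17.4 to 37.0). Without ko_314 the KO level was 10.6% for Mcpt8, 13.1% for Prss34 and 31.5% for Cpa3. These intervals, and those on shares of counts given further on, cover counting error only, not the spread between mice.

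Leaving out wt_284 raised each of these shares except that of Ear1, and reversed none. The KO level was then 0.808% of the WT level for Prg2, 0.677% for Epx, 0.738% for Ear6, 5.63% for Ear2 and 8.20% for Alox15, and Ear1 was at least 71.1-fold lower. It was 12.3% for Mcpt8, 19.1% for Prss34 and 33.0% for Cpa3. On the scale of mean log2(CPM + 1), KO minus WT, which understates the change of low genes, the difference was -5.07 for Prg2 with all libraries and -3.90 without wt_284. It was -3.79 and -2.84 for Ear1, -3.08 and -2.20 for Alox15, -2.62 and -2.21 for Mcpt8, and -1.85 and -1.53 for Cpa3. The smallest of the 9 differences was that of Cpa3 in both settings. Without ko_314 the difference of Cpa3 was -1.21, and without wt_312 that of Prg2 was -6.93. The same 4 genes had every KO library below every WT library without wt_284, a pattern that 3.62% of all tested genes then had.

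**Figure D2:**
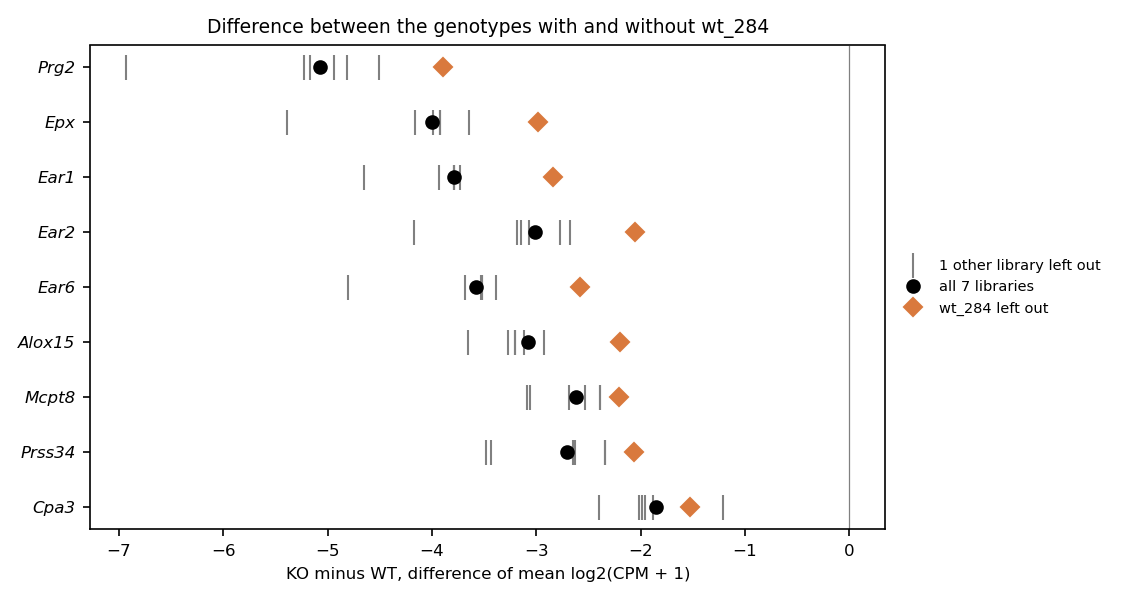
Difference between the genotypes in mean log2(CPM + 1), KO minus WT, for each of the 9 genes, with all 7 libraries (circles), without wt_284 (diamonds) and without each other library in turn (ticks). Differences are negative in both settings for all 9 genes, from -5.07 for Prg2 to -1.85 for Cpa3 with all libraries.

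In the fit across all genes, edgeR called 0 of the 9 genes, beside 0.00651% of all 15372 tested. An unadjusted p under 0.05 was reached by 7 of them, beside 3.27% of all. DESeq2 called Ear1 and Alox15, beside 0.0437% of the 29739 genes with any count that were given to it. Without a filter on low counts edgeR called Mcpt8, beside 0.272% of all genes. Without wt_284 it called 0 of the 5 that then passed the filter, beside 0.0201%, and without both the filter and wt_284 it called Ear1, Ear2 and Ear6, beside 0.0526%. Log2 fold changes were negative for 9 of 9, as for 52.4% of all tested genes. The log2 fold changes of the edgeR fit were -8.47 ± 2.75 for Prg2, -5.58 ± 1.60 for Alox15, -3.92 ± 1.28 for Mcpt8, -3.63 ± 1.77 for Prss34 and -2.10 ± 0.96 for Cpa3 (standard errors). These standard errors, and those of log2 fold changes further on, were derived as the fold change over the square root of the test's F value. All 9 genes passed the filter on low counts, which they did through the WT libraries, and without wt_284 only 5 passed, those outside being Ear2, Ear6, Epx and Prg2. Because the contrast chose the genes, these counts of calls are printed as a description.

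Prg2 held the largest share of the eosinophil counts in 3 WT libraries. Of the summed counts of the 6 eosinophil genes, Prg2 made up 52.1% (exact 95% interval 51.0 to 53.1) in wt_284, 53.3% (50.4 to 56.1) in wt_290 and 60.5% (58.1 to 62.9) in wt_310. Epx made up 14.0%, 15.0% and 14.5% in the same libraries. wt_312 differed from them, with 0 of 31 eosinophil counts from Prg2, which allows a share of up to 11.2%, and with Alox15 at 67.7% and Ear1 at 32.3%. The KO libraries had few counts to divide, at 26, 1 and 18 in ko_306, ko_314 and ko_320, and Prg2 made up 34.6% (17.2 to 55.7) in ko_306.

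Among the 3 basophil and mast cell genes, ko_306 had a make-up close to that of wt_284. Prss34 made up 50.6% (39.3 to 61.9) of 81 counts in ko_306, against 52.7% of 622 counts in wt_284, 44.7% of 264 in wt_290, 44.3% of 174 in wt_310 and 13.0% (6.14 to 23.3) of 69 in wt_312. All 33 counts of ko_320 were Cpa3 (89.4 to 100%), against a Cpa3 share of 59.4% (46.9 to 71.1) in wt_312 and of 21.3% to 29.5% in the other WT libraries. ko_314 had 0 counts of all 3 genes.

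**Figure D3:**
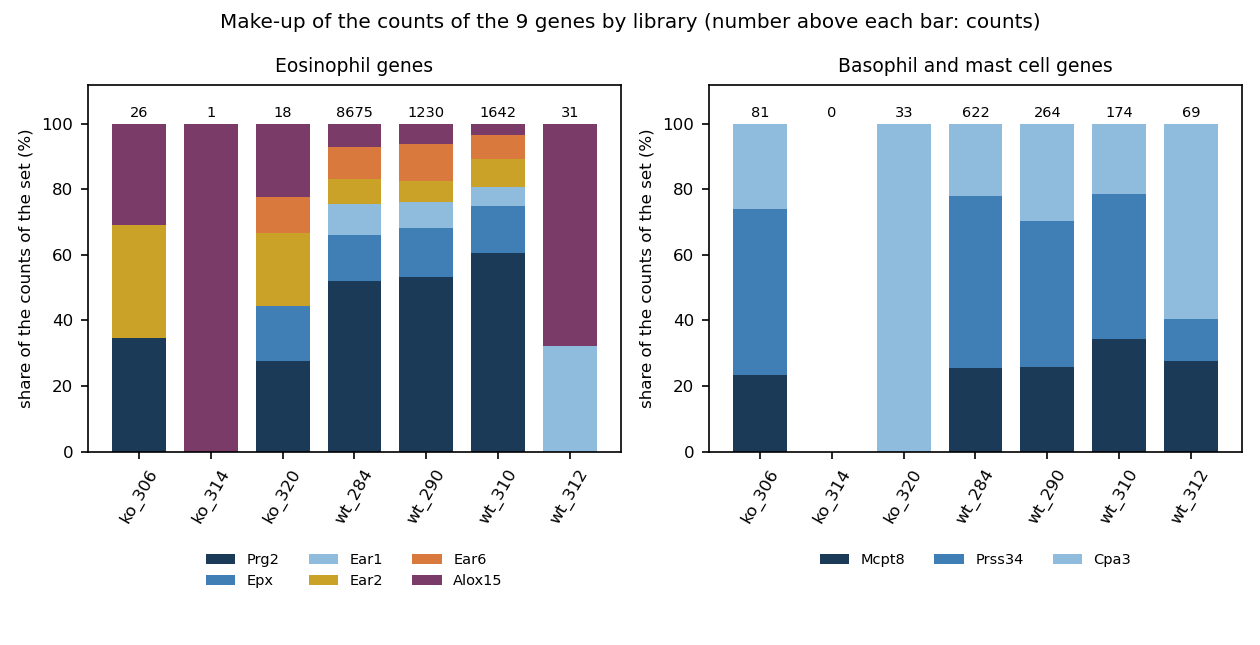
Share of each gene in the summed counts of the 6 eosinophil genes and of the 3 basophil and mast cell genes, in percent, by library, with KO libraries left of WT libraries and the number of counts above each bar. Prg2 makes up 52.1% to 60.5% of the eosinophil counts in wt_284, wt_290 and wt_310 and 0% in wt_312.

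The other eosinophil genes tested had negative log2 fold changes, and none of them passed the test. Of 10 listed granule and surface genes, 7 had a count and 6 were tested, all 6 with negative log2 fold changes (median -3.14, against -0.02 over all tested genes) and 0 called by edgeR, with 3 at an unadjusted p under 0.05. Without wt_284, 3 remained tested, with a median of -1.35. Prg3, the paralogue of Prg2, had 0.0861, 0 and 0 CPM in ko_306, ko_314 and ko_320, against 27.4, 2.08, 9.02 and 0 CPM in wt_284, wt_290, wt_310 and wt_312 (log2 fold change -7.55 ± 2.23, edgeR adjusted p = 0.992). Its high and low WT libraries were those of Prg2. Il5ra, the receptor subunit for the eosinophil growth factor IL-5, had 0.258, 0.447 and 0 CPM in ko_306, ko_314 and ko_320, against 7.88, 0.755, 1.38 and 1.67 CPM in wt_284, wt_290, wt_310 and wt_312. Its groups did not overlap (log2 fold change -3.57 ± 1.30, edgeR adjusted p = 0.992). The eotaxin receptor gene Ccr3 had 0.689, 0 and 2.04 CPM in ko_306, ko_314 and ko_320, against 14.8, 2.17, 5.35 and 1.80 CPM in wt_284, wt_290, wt_310 and wt_312, so that ko_320 lay above wt_312. The surface receptor gene Cd300lf had 6.89, 5.07 and 1.91 CPM in ko_306, ko_314 and ko_320, against 84.5, 4.91, 7.18 and 5.78 CPM in wt_284, wt_290, wt_310 and wt_312. Its ko_306 value lay above wt_290 and wt_312, and its log2 fold change was -2.46 with all libraries and -0.35 without wt_284. Lgals3, the gene of galectin-3, had 1.72, 0 and 1.78 CPM in ko_306, ko_314 and ko_320, against 68.2, 3.21, 4.28 and 1.67 CPM in wt_284, wt_290, wt_310 and wt_312. Its log2 fold change was -3.98 with all libraries and -1.35 without wt_284. Siglecf, a surface marker of mouse eosinophils, had 1.38, 0.447 and 0 CPM in ko_306, ko_314 and ko_320, against 13.3, 3.02, 0.306 and 0.128 CPM in wt_284, wt_290, wt_310 and wt_312, so that ko_306 lay above wt_310 and wt_312. Il5ra and Siglecf were named for their role after their values had been seen, as were the other genes described for their role in the next paragraphs.

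The mast cell proteases that mark mature tissue mast cells were not detected. Of 19 listed protease and granule genes, 10 had 0 counts in all 7 libraries, among them Mcpt1, Mcpt2, Mcpt4, Cma1, Tpsb2 and Tpsab1. Of the 7 tested, 3 log2 fold changes were positive and 4 negative around a median of -0.16, and edgeR called 0, with 0 at an unadjusted p under 0.05. Without wt_284 the median turned to 0.17, with 4 positive and 3 negative. Hdc, the histamine-forming decarboxylase, had 4.48, 0.746 and 0 CPM in ko_306, ko_314 and ko_320, against 122, 7.27, 5.04 and 1.67 CPM in wt_284, wt_290, wt_310 and wt_312, and its groups overlapped. Cd200r3, a receptor of basophils and mast cells, had 2.07, 4.33 and 7.01 CPM in ko_306, ko_314 and ko_320, against 11.5, 1.98, 3.52 and 2.83 CPM in wt_284, wt_290, wt_310 and wt_312. ko_314 and ko_320 thus lay above 3 of the WT libraries, and its log2 fold change was -0.16 ± 0.73 (edgeR adjusted p = 0.992), and 0.69 without wt_284. Srgn and Slc18a2, the granule proteoglycan and the monoamine transporter, were abundant in every library, at mean levels of 296 ± 69 and 144 ± 39 CPM in the 3 KO libraries and 268 ± 24 and 106 ± 26 CPM in the 4 WT libraries (SD).

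The receptor of IgE, which arms basophils and mast cells, has a binding chain (Fcer1a), a signal-amplifying chain (Ms4a2) and a shared chain (Fcer1g). Fcer1a was too low to be tested, at 0.172, 0 and 0 CPM in ko_306, ko_314 and ko_320, against 3.27, 0.850, 1.38 and 0 CPM in wt_284, wt_290, wt_310 and wt_312. Ms4a2 had 0.947, 0 and 1.53 CPM in ko_306, ko_314 and ko_320, against 10.9, 3.31, 5.04 and 0 CPM in wt_284, wt_290, wt_310 and wt_312. wt_312 held no count of either gene. Fcer1g, the most abundant of these chains, had 6.80, 2.24 and 11.5 CPM in ko_306, ko_314 and ko_320, against 76.4, 11.2, 11.8 and 15.5 CPM in wt_284, wt_290, wt_310 and wt_312. Its ko_320 value lay above wt_290, and its log2 fold change was -2.06 with all libraries and -0.90 without wt_284. Of the 13 tested genes of the receptor and its proximal signalling, 3 had positive and 10 negative log2 fold changes with a median of -0.16 (-0.08 without wt_284), and edgeR called 0, with 0 at an unadjusted p under 0.05.

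Of 10 tested receptors for cytokines and growth factors, 1 had a positive and 9 negative log2 fold changes (median -0.67, and -0.32 without wt_284), and 1 had an unadjusted p under 0.05. Kit, the stem cell factor receptor of stem cells and mast cells, had a mean of 701 ± 116 CPM in the 3 KO libraries and 640 ± 125 CPM in the 4 WT libraries (SD). The receptor of IL-33, Il1rl1, had 1.55, 0.149 and 5.35 CPM in ko_306, ko_314 and ko_320, against 21.7, 6.42, 6.11 and 0 CPM in wt_284, wt_290, wt_310 and wt_312. Of 17 transcription factors tested, 3 had positive and 14 negative log2 fold changes (median -0.60), and 3 had an unadjusted p under 0.05. Without wt_284, 16 were tested, 5 positive and 11 negative, with a median of -0.16. Gata2, needed for basophil and mast cell development, had a mean of 299 ± 23 CPM in the KO libraries and 255 ± 31 CPM in the WT libraries (SD), while Cebpe, a factor of late granulocyte maturation, had 1.21, 0 and 0 CPM in ko_306, ko_314 and ko_320, against 19.6, 3.02, 3.82 and 1.16 CPM in wt_284, wt_290, wt_310 and wt_312. Of 7 tested enzymes of lipid mediators, 4 had positive and 3 negative log2 fold changes (median 0.10, and 0.09 without wt_284). The 4 most abundant of these enzymes had log2 fold changes of 0.25 (Tbxas1), 0.30 (Pla2g4a), 0.10 (Ptgs1) and -0.66 (Lta4h, -0.23 without wt_284). Alox5, which starts leukotriene synthesis, had 3.36, 0 and 0 CPM in ko_306, ko_314 and ko_320, against 83.4, 7.46, 6.27 and 0 CPM in wt_284, wt_290, wt_310 and wt_312. Over the 6 lists of these lineages together, 59 of 82 genes were tested, 14 with positive and 45 with negative log2 fold changes, 0 were called by edgeR or by DESeq2, and 6 had an unadjusted p under 0.05.

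The summed levels of neutrophil and monocyte markers and of erythroid markers were highest in wt_284, as the 9 genes were. wt_290 and wt_310 came next in both sums, though not for every single marker. Summed over 16 neutrophil and monocyte markers, levels were 721, 210 and 197 CPM in ko_306, ko_314 and ko_320, against 15560, 1338, 1328 and 254 CPM in wt_284, wt_290, wt_310 and wt_312. All 16 had negative log2 fold changes with 0 called by edgeR (median -4.08, and -1.72 without wt_284), 3 had an unadjusted p under 0.05, DESeq2 called Mpo, and 5 of the 16 were at 0 counts in ko_314, 2 in ko_320 and 2 in wt_312. Summed over 12 erythroid markers, levels were 353, 196 and 326 CPM in ko_306, ko_314 and ko_320, against 4769, 675, 1034 and 292 CPM in wt_284, wt_290, wt_310 and wt_312, again with 12 of 12 log2 fold changes negative, 0 called by edgeR or DESeq2 and 2 at an unadjusted p under 0.05. The erythroid median was -2.56 with all libraries and -1.18 without wt_284, when 11 were negative and 1 positive. The neutrophil and monocyte sum and the erythroid sum overlapped between the genotypes, as ko_306 lay above wt_312 in both. Sums of the other lineage lists overlapped too. The 7 megakaryocyte markers summed to 222 to 300 CPM in the KO libraries and 172 to 321 CPM in the WT libraries. The 11 lymphoid markers summed to 15.7 to 19.5 CPM in the KO libraries and 16.3 to 98.4 CPM in the WT libraries, and the 7 marrow macrophage markers to 11.2 to 27.1 CPM in the KO libraries and 11.7 to 45.8 CPM in the WT libraries. The part of these markers in the values of the 9 genes was not tested.

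The eosinophil genes did not keep a fixed proportion to the neutrophil and monocyte markers. Per 100 CPM of those markers, the 6 eosinophil genes had 0.311, 0.0709 and 1.17 CPM in ko_306, ko_314 and ko_320, against 6.76, 8.68, 18.9 and 1.57 CPM in wt_284, wt_290, wt_310 and wt_312. wt_290 had 1.86-fold the neutrophil sum of ko_306 and 51.9-fold its eosinophil sum. The 3 basophil and mast cell genes had 0.968, 0 and 2.14 CPM per 100 CPM in ko_306, ko_314 and ko_320, against 0.485, 1.86, 2.00 and 3.49 CPM in wt_284, wt_290, wt_310 and wt_312, so that by this measure the groups overlapped and wt_284 was below ko_306.

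**Figure D4:**
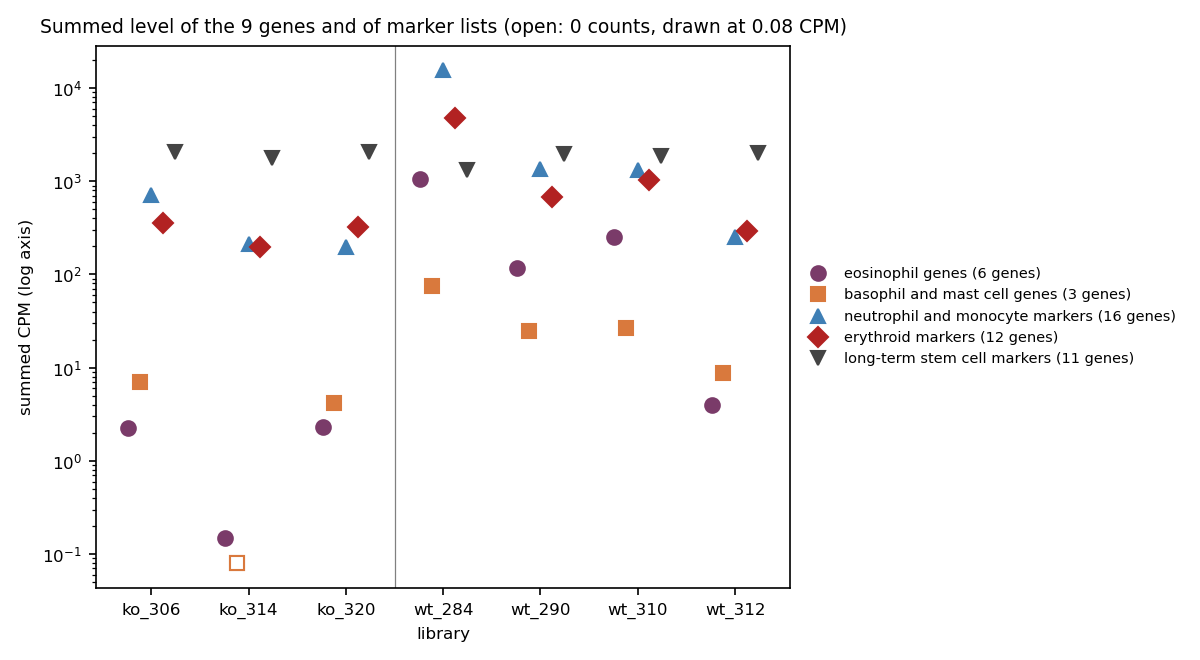
Summed level (CPM, log axis) of the 6 eosinophil genes, the 3 basophil and mast cell genes and the marker lists in each library, with KO libraries left of WT libraries and open points for 0 counts. wt_284 has the highest neutrophil and erythroid sums, 15560 and 4769 CPM, and the lowest stem cell sum, 1310 CPM.

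The genes whose levels followed Prg2 most closely over the 7 libraries, among 13960 genes compared, were Ear2 (Pearson r = 0.992 of log2 CPM), Glrx5 (0.989), Epx (0.988), Ear6 (0.986) and Olfm4 (0.979), so 3 of the 5 are eosinophil genes of the set. Olfm4, a neutrophil granule protein gene, had 0.258, 0 and 0 CPM in ko_306, ko_314 and ko_320, against 61.9, 4.25, 10.5 and 0 CPM in wt_284, wt_290, wt_310 and wt_312. Those closest to Prss34 were Mif4gd (0.992), Ndrg1 (0.990), Acss1 (0.990), C1rl (0.989) and Chil3 (0.989), none of them in the set. All points share the same 7 libraries, and wt_284 is the highest for both Prg2 and Prss34.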

How the data were processed

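Sorted LT-HSCs of 7 mice were profiled with a stranded total RNA kit for small inputs, per the labels' protocols, although the molecule label reads polyA RNA. The authors deposited estimated counts per gene as whole numbers without scaling. Per the submitters' processing notes, cutadapt and Salmon were used. Neither gives a version, an annotation or the use of strand in counting. Each of the 7 columns of values was matched to 1 mouse by its label. Genes were compared between 3 KO and 4 WT libraries with edgeR 4.0.16 (R 4.3.3: filterByExpr, TMM, robust quasi-likelihood fit), with Benjamini-Hochberg adjustment over 15372 genes and a threshold of 0.05. DESeq2 1.42.0 was an alternative. The test was tested on simulated data. P-values measure the spread between mice. Positions came from GENCODE M21, by identifier.

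The 9 genes and all lists were chosen with earlier results of these data known. The genes named beside them were the 4 of highest mean level in each list and the 5 closest in pattern to Prg2 and to Prss34. Il5ra, Siglecf, Hdc, Cd200r3, Il1rl1, Ms4a2, Fcer1a, Fcer1g, Cebpe, Alox5 and Mpo were added for their role after their values were seen. Ear14 and Hbb-bs stand in the table under older symbols and were matched by identifier. Depth limits precision as counts of 0 allow 3 counts.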

Additional observations from a re-analysis of the deposited data

Results flagged for a closer look

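The values in this section are Dixon ratios, the gap between wt_284 and the nearest other WT library as a share of the range of the 4 WT libraries, set against Dixon's 95% critical value for 4 samples. Of 61 genes examined in CPM, 22 passed it, all through wt_284. The genes share the same 4 libraries and some were chosen after their values were seen, so this count cannot be compared with chance. Of the 9 genes, Ear1 had a ratio of 0.865 and Alox15 of 0.921. Other eosinophil and basophil genes past it were Il5ra (0.872), Cd300lf (0.971), Lgals3 (0.961), Hdc (0.954), Cd200r3 (0.839) and Fcer1g (0.934). Receptor, factor and lipid enzyme genes past it were Csf2rb (0.886), Csf2ra (0.894), Cebpe (0.856), Lta4h (0.839) and Alox5 (0.911). Neutrophil and monocyte genes past it were S100a9 (0.914), Ngp (0.929), Ltf (0.939), Lyz2 (0.915), Mpo (0.834), Olfm4 (0.83) and Chil3 (0.906), and erythroid genes were Hba-a2 (0.86) and Hba-a1 (0.878).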

How the results depend on the processing

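The 119 log2 fold changes of the 9 genes that could be fitted were negative. Ear2, Ear6, Epx and Prg2 failed the filter, and so had no value, without wt_284, without wt_290, without wt_310 and with mice above 300 alone. Their calls were 0 in each fit that left out 1 library, 1 without a filter on low counts (Mcpt8), 2 in DESeq2 (Ear1 and Alox15) and 3 without both the filter and wt_284 (Ear1, Ear2 and Ear6), the last chosen after seeing the data. Over all genes, edgeR called 1, against 81 without the filter, 13 in DESeq2, 7 with mice numbered above 300 alone, 15 without both the filter and wt_284, and 1 to 3 with 1 library left out. Of the other lineage genes, neutrophil and erythroid markers included, 0 were called with all libraries, 6 were called without the filter, 1 in DESeq2 (Mpo), 1 with mice above 300 alone (Mpo) and 2 without both the filter and wt_284. Some log2 fold changes turned sign. With 1 library left out, Srgn ran from -0.022 to 0.283, Cd63 ran from -0.043 to 0.208, Plcg2 ran from -0.248 to 0.001, Vav1 ran from -0.282 to 0.013, Plcg1 ran from -0.117 to 0.15, Csf2ra ran from -0.704 to 0.565, Zfpm1 ran from -0.103 to 0.043, Runx1 ran from -0.113 to 0.233 and Cd200r3 ran from -0.611 to 0.687. With mice above 300 alone they were 0.009 for Syk, -0.133 for Plcg1, 0.554 for Csf2ra, 0.007 for Zfpm1, -0.048 for Tbxas1 and 0.491 for Cd200r3. Without both the filter and wt_284 they were -0.103 for Plcg1, 0.562 for Csf2ra and 0.683 for Cd200r3, and with a filter of 1 CPM in 3 libraries 0.007 for Runx1. The cause was not tested. No paired analysis was possible because mouse numbers are unique to each library. The KO libraries held 0 to 41 counts of each of the 9 genes, which limits every ratio given.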
